A study of Homo sapiens with 6 samples.

Results

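The mRNAs examined here are 9 transcripts of genes that p53 is known to switch on directly, namely MDM2, BTG2, SESN1, PHLDA3, ZMAT3, GDF15, RRM2B, XPC and DDB2. They were chosen by exact gene symbol and by known function, and all 9 were found among the 26822 symbols of the table, each at a single row. MCF10A is an established, non-tumorigenic line of human breast epithelial cells that has lost the CDKN2A region. The control cells received 30 nM of a non-targeting siRNA (siNT) and the depleted cells 30 nM of siRNAs against PAX9 (siPAX9), each for 72 hours, with 3 samples per group; with 1 cell line and 1 siRNA reagent against PAX9, loss of PAX9 and off-target action of the siRNA cannot be told apart. Poly(A)+ RNA was sequenced from all 6 samples, but the authors combined the samples of a group into 1 FPKM, a fragment count corrected for transcript length and library depth, so every level below is the authors' value for a whole group. No error between replicates, interval or test was computed from these values, since none can be had from 1 value per group, the authors' own test columns were not used here, and the reads behind each FPKM are unknown. A difference is therefore a description of the 2 combined values, and 2-fold is used as the mark for a large one.

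The FPKM of PAX9 itself was 2.80 in siNT against 0.325 in siPAX9, a log2 ratio of siPAX9 over siNT of -3.10. These values are low, and the log2 ratio was -1.52 with 1 added to each FPKM. All 10 breast epithelial markers examined, among them KRT5, KRT17 and EGFR, were above an FPKM of 1 in both groups, and they summed to 4079 in siNT and 5340 in siPAX9. CDH1 and KRT6A were at least 2-fold higher in siPAX9 and EPCAM at least 2-fold lower. Of 7 markers of leukocytes, endothelium, hormone-responsive luminal cells and hepatocytes, only PECAM1 reached an FPKM of 1 in either group, with 2.58 in siNT and 0.495 in siPAX9. Those 7 summed to 2.68 in siNT and 0.944 in siPAX9, and CD3E was listed at 0 in both. The part of these shifts in the results below was not tested. In bulk RNA, a change in the number of cells that express a gene cannot be told apart from a change in its RNA per cell.

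The protein p53 is a transcription factor that is held at a low level in unstressed cells by MDM2, the ubiquitin ligase that marks it for destruction. When stress such as DNA damage frees p53 from this control, it binds its response elements and raises a broad set of mRNAs. MDM2 is one of them, which closes a negative feedback loop. Other targets slow the cell cycle and growth, and others again act in DNA repair.

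To show the kind of sequence through which p53 acts on these genes, the region around each annotated start was searched for a p53 site, that is, a pair of p53 half-sites of 10 bases each. Positions are on GRCh37, and the sequences are written 5′ to 3′ on the strand of the gene, with the 4 central bases of each half-site in capitals.
MDM2, chr12:69202703-69202722: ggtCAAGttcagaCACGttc
ZMAT3, chr3:178787976-178787995: aaaCAAGtccagaCATGcct
DDB2, chr11:47236530-47236550: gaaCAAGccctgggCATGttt
BTG2, chr1:203272770-203272789: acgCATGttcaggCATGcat
GDF15 upstream, chr19:18496118-18496137: catCTTGcccagaCTTGtct
GDF15 exon 1, chr19:18496996-18497015: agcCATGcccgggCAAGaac
The ZMAT3 and DDB2 sequences matched the p53 site with 0 mismatches. The ZMAT3 match lay in intron 1, 1602 bases after the start. The DDB2 match lay in the untranslated part of exon 1, 5 bases after the start, and its half-sites were separated by 1 base. The MDM2 match lay in intron 1, 746 bases after the start, and differed from the site at 2 bases, 1 of them in a core. The BTG2 match began 1877 bases before the start and differed at 2 bases. The upstream GDF15 match began 850 bases before the start with 2 mismatches, and the other, 28 bases after the start in a stretch that is coding in part or whole, had 3. RRM2B held a further match with 1 mismatch in intron 1, 2102 bases after the start, which is not printed. Other matches of BTG2, GDF15 and DDB2 under the loosest definition are not shown.

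How many members held a match depended on how the site was defined. With adjacent half-sites, whole cores and up to 2 mismatches within 1000 bases of the start, only GDF15 of the 9 did, against 0.639% of the 17983 protein-coding genes searched. With the half-sites 0 or 1 base apart and the window widened to 5000 bases, BTG2, ZMAT3, GDF15, RRM2B and DDB2 did, against 8.85% of genes. With only the C and G of each core required and up to 3 mismatches within 1000 bases, MDM2, BTG2, GDF15 and DDB2 did, against 14.3% of genes. SESN1, PHLDA3 and XPC had no match under these settings. Only a single annotated start per gene was used, and other starts and sequence beyond 5000 bases were not searched. Both wider definitions were tried after the first result was known. A match is a description of the letters, and binding of p53 was not measured here.

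MDM2 was the member that differed most. In siNT its FPKM was 43.6 and in siPAX9 it was 161. This is a ratio of 3.68 and a log2 ratio of 1.88, at a row that covers the gene on chromosome 12 from 69201952 to 69241396. In siNT, MDM2 stood in place 3 of the 9 members by FPKM, and in siPAX9 it stood in place 1. It made up 12.2% of the summed FPKM of the 9 in siNT and 26.8% in siPAX9. MDM2 was the only member at or past 2-fold. That is 1 of 9 as higher, where 7.75% of the 13622 genes that reached an FPKM of 1 in either group were at least 2-fold higher (15.0% were at least 2-fold higher or lower), so the count by itself does not set the members apart. No member was at least 2-fold lower, against 7.22% of all genes. Among the 13622 genes, MDM2 ranked 473 from the top by log2 ratio.

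**Figure D1:**
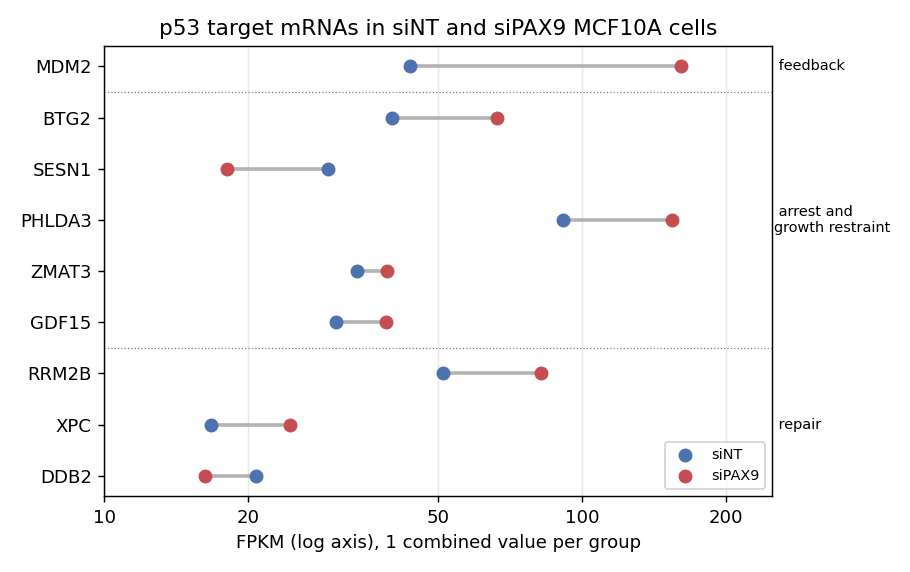
FPKM of the 9 members on a log axis, with 1 point for the combined siNT value and 1 for the combined siPAX9 value of each gene, grouped by role. MDM2 moves from 43.6 to 161, SESN1 and DDB2 are the 2 genes whose siPAX9 point lies to the left, and there are no error bars because the table holds 1 value per group.

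The other genes that control the pathway did not share the difference of MDM2. MDM4, a relative of MDM2 that binds and inhibits p53, had 23.0 in siNT and 20.4 in siPAX9 (log2 ratio -0.17). The FPKM of MDM2 was 1.90 times that of MDM4 in siNT and 7.89 times in siPAX9. PPM1D, a phosphatase that switches off the p53 response and is itself a p53 target, had 5.60 and 6.20 in the same order. CDKN2A, whose ARF product restrains MDM2, was listed at 0 in both groups. RPL5, a ribosomal protein that binds MDM2, was 1086 in siNT and 518 in siPAX9 (log2 ratio -1.07). Of the 11 genes examined among the relatives and regulators of p53 that reached an FPKM of 1, RPL5 and TP73, a p53 relative with 4.24 in siNT and 1.07 in siPAX9, were at least 2-fold lower (7.22% of all genes were), and 0 were at least 2-fold higher (7.75% of all genes were). The median log2 ratio of the 11 was -0.24, against -0.07 for all 13622 genes.

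The members that act in arrest and growth restraint were spread on both sides. PHLDA3, a short protein that competes with AKT for membrane lipids and so limits AKT signaling, stood at an FPKM of 91.3 in siNT against 154 in siPAX9 (chromosome 1, 201433412 to 201438299 on hg19). It was the most abundant of the 9 in siNT and was second only to MDM2 in siPAX9, with a log2 ratio of 0.76. BTG2, an antiproliferative protein that recruits the deadenylase of the CCR4-NOT complex to mRNAs, had 40.1 in siNT and 66.4 in siPAX9 (log2 ratio 0.73), at a row on chromosome 1 from 203274664 to 203278729. Both were more than 1.5-fold higher but did not reach 2-fold.

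GDF15 encodes a secreted stress hormone of the TGF-β superfamily, and its FPKM was 30.5 in siNT and 38.8 in siPAX9 (log2 ratio 0.35), at a row on chromosome 19 from 18496968 to 18499986. ZMAT3 encodes a zinc finger protein that binds RNA and influences splicing, and its FPKM was 33.8 in siNT and 39.1 in siPAX9 (log2 ratio 0.21), at a row on chromosome 3 from 178735011 to 178789656. These were the smallest log2 ratios among the members that were higher. Whether the differences of GDF15 and ZMAT3 exceed the spread between samples was not tested here. SESN1, whose protein restrains mTORC1 signaling when amino acids are scarce, went the other way, with 29.3 in siNT and 18.0 in siPAX9 at a row on chromosome 6 from 109307552 to 109415708. Its log2 ratio was -0.70, the lowest of the 9, and 86.4% of the 13622 genes had a ratio at or above it.

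The repair members differed among themselves. RRM2B encodes p53R2, the small subunit of ribonucleotide reductase that supplies deoxynucleotides outside S phase. Its FPKM was 51.3 in siNT and 82.2 in siPAX9 (log2 ratio 0.68), at a row on chromosome 8 from 103216729 to 103251346. XPC, the protein that recognizes distorted DNA at the start of global nucleotide excision repair, had 16.7 in siNT and 24.4 in siPAX9 (log2 ratio 0.55), at a row on chromosome 3 from 14186236 to 14220172 that overlaps a further annotated gene on the opposite strand. DDB2, which binds ultraviolet lesions and hands them to XPC, had 20.8 in siNT and 16.2 in siPAX9 (log2 ratio -0.36). XPC was the least abundant member in siNT and DDB2 the least abundant in siPAX9. The ratio of XPC to DDB2 was 0.805 in siNT and 1.51 in siPAX9. The value of DDB2 carries a limit, since its row on chromosome 11 from 47236429 to 47290584 also spans ACP2 and NR1H3, which have rows of their own with the same coordinates. NR1H3, which lies on the same strand, had 7.27 in siNT and 1.78 in siPAX9, ACP2 had 4.16 and 5.70, and the part that reads of these neighbours play in the DDB2 value was not tested.

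Across the 9 members, 7 were higher and 2 were lower in siPAX9, while 45.2% of all 13622 genes were higher. At a fold of 1.5, MDM2, PHLDA3, BTG2 and RRM2B were higher, 4 of 9 against 14.8% of all genes, and SESN1 was lower, 1 of 9 against 17.0% (31.8% of all genes in either direction). The median log2 ratio of the 9 was 0.55, against -0.07 for all genes. The summed FPKM of the 9 was 357 in siNT against 600.3 in siPAX9, and without MDM2 it was 314 against 439.6. By FPKM the order in siNT was PHLDA3, RRM2B, MDM2, BTG2, ZMAT3, GDF15, SESN1, DDB2 and XPC, and in siPAX9 it was MDM2, PHLDA3, RRM2B, BTG2, ZMAT3, GDF15, XPC, SESN1 and DDB2. Whether neighbours in either order differ beyond their spread was not tested here. Among the 13622 genes, PHLDA3 ranked 1509 by log2 ratio, BTG2 1574, RRM2B 1713, XPC 2152, GDF15 3131, ZMAT3 4177, DDB2 9766 and SESN1 11765. Apart from MDM2, the members thus lay within 2-fold, as did most genes.

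**Figure D2:**
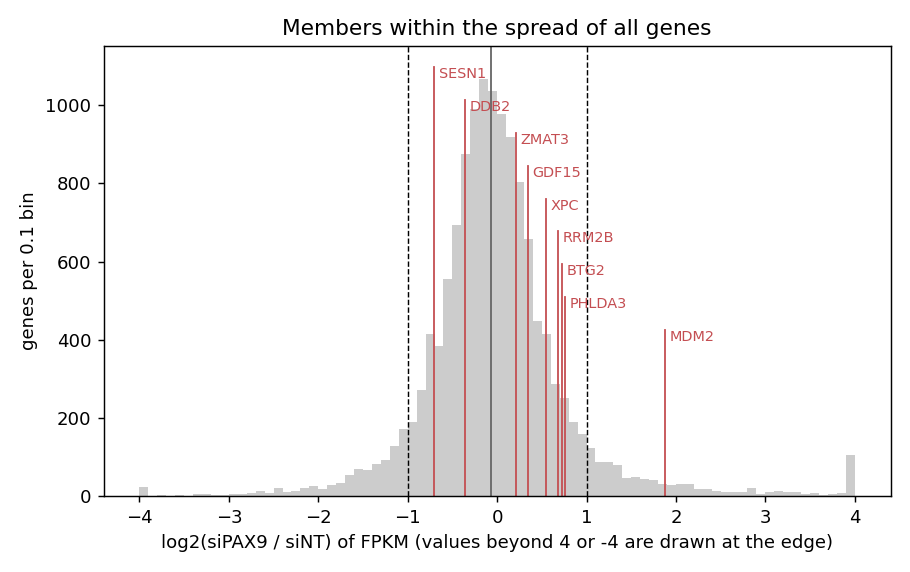
Histogram of log2(siPAX9/siNT) for the genes that reached an FPKM of 1 in either group, in bins of 0.1, where values beyond either end of the axis are drawn at the edge, with a red line for each of the 9 members, dashed lines at 2-fold and a grey line at the median. MDM2, at 1.88, is the only member outside the dashed lines, and SESN1 and DDB2 lie to the left of the median of -0.07.

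The relatives of the members did not share a direction. RRM1, the large subunit that both forms of ribonucleotide reductase need, had 26.9 in siNT and 11.5 in siPAX9 (log2 ratio -1.22). RRM2, the small subunit used in S phase, had 10.4 and 8.55 (log2 ratio -0.29). The FPKM of RRM2B was thus 4.92 times that of RRM2 in siNT and 9.62 times in siPAX9, and 1.90 times that of RRM1 in siNT and 7.12 times in siPAX9. SESN2, the sestrin that is also raised by ATF4, had 17.0 and 17.3, and SESN3, a sestrin under FOXO control, had 0.347 and 1.37. SESN1 was therefore 1.73 times SESN2 in siNT and 1.04 times in siPAX9. The 2-fold difference of SESN3 rests on low values, and its log2 ratio of 1.98 was 0.81 with 1 added to each FPKM. BTG1, a close relative of BTG2, had 21.1 in siNT and 51.1 in siPAX9 (log2 ratio 1.28) at a row it shares with LINC01619. PHLDA1 had 34.2 and 27.4 and PHLDA2 had 53.3 and 42.7, so both were slightly lower where PHLDA3 was higher.

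**Figure D3:**
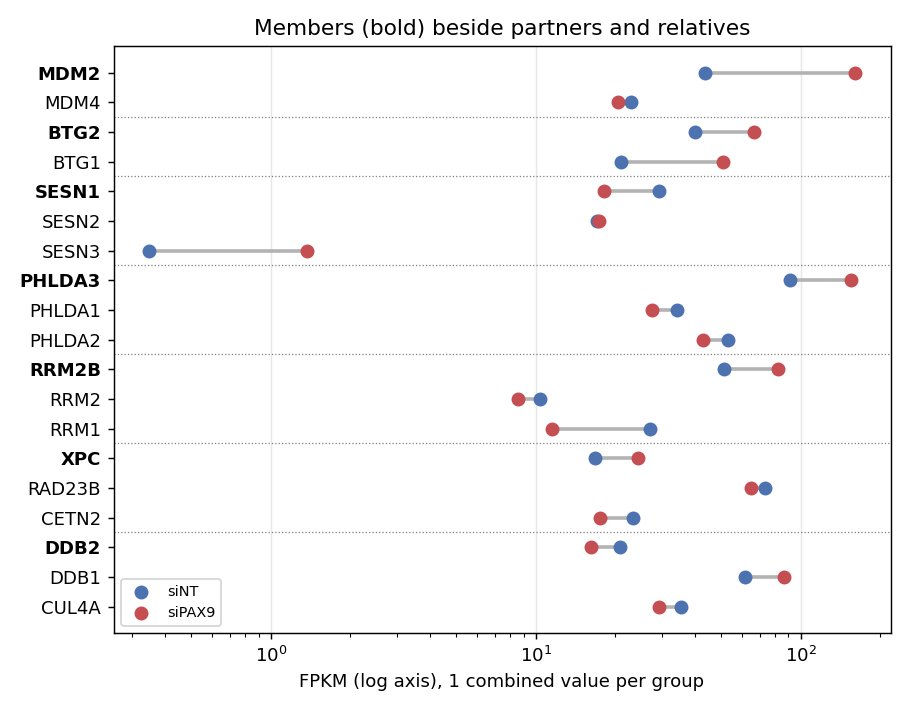
FPKM on a log axis in siNT and siPAX9 for members (bold) beside their partners and relatives, 1 combined value per group. RRM2B moves up while RRM1 moves from 26.9 to 11.5, and MDM2 moves up while MDM4 moves from 23.0 to 20.4.

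XPC and DDB2 were set beside 30 other genes of nucleotide excision repair. Of these, 24 were lower and 6 higher in siPAX9, with a median log2 ratio of -0.37, where 54.8% of all genes were lower. DDB1, the partner of DDB2 in the CUL4A ubiquitin ligase, had 61.7 in siNT and 86.2 in siPAX9 (log2 ratio 0.48), so that DDB2 was 0.336 times DDB1 in siNT and 0.188 times in siPAX9. RAD23B, the partner that stabilizes XPC, had 73.3 and 65.2 (log2 ratio -0.17). Only ERCC6 of the 30 was past 2-fold, where 15.0% of all genes were, with 4.89 in siNT and 11.8 in siPAX9 at a row it shares with PGBD3. The 7 genes that fill the repair gap, which also serve DNA replication, were all lower, with a median of -0.70.

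A list of 42 other p53 targets gave the wider context. All 42 reached an FPKM of 1 in either group, and 35 were higher and 7 lower in siPAX9. At least 2-fold higher were 9 of the 42, or 21.4%, against 7.75% of all genes, and 0 were at least 2-fold lower, against 7.22%. Their median log2 ratio was 0.44, close to the 0.55 of the 9 members. By role, the median was 0.78 for the 9 genes of arrest, 0.41 for the 16 of cell death and 0.44 for the 17 others. CDKN1A, the inhibitor of cyclin-dependent kinases that carries out p53-dependent arrest, stood at an FPKM of 69.0 in siNT against 373 in siPAX9 (log2 ratio 2.44), a larger ratio than that of MDM2. TP53I3, an oxidoreductase tied to oxidative stress, had 34.6 and 92.9 (log2 ratio 1.42). TP53AIP1, a mitochondrial protein of p53-dependent cell death, had the largest log2 ratio, 2.71, from an FPKM of 0.296 in siNT to 1.94 in siPAX9, which was 1.18 with 1 added to each FPKM. The others at least 2-fold higher, listed after their values were seen, were PLK2, TNFRSF10C, GADD45A, PERP, TP53INP1 and TIGAR. Some of the 42 lie on rows shared with another symbol. With only rows that hold a single symbol, 8 of 39 were at least 2-fold higher. The p53 targets in this list and the 9 members were chosen with results of these data known, so their shared direction is a description and no independent evidence.

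**Figure D4:**
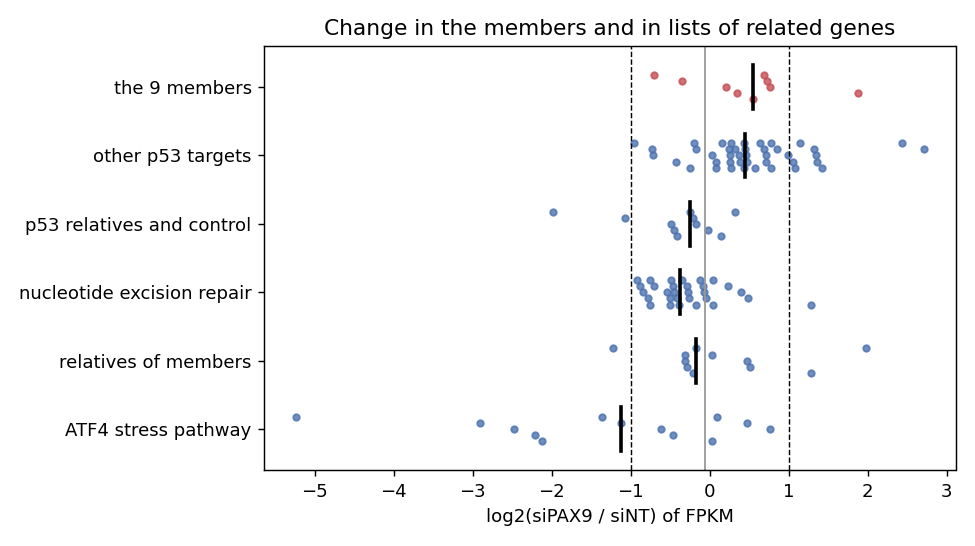
Log2(siPAX9/siNT) of each gene that reached an FPKM of 1 in either group, by list, with a black bar at the list's median, dashed lines at 2-fold and a grey line at the median of all genes. The members (median 0.55) and the other p53 targets (0.44) lie mostly to the right, the nucleotide excision repair genes (-0.37) and the ATF4 stress pathway (-1.12) mostly to the left.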

How the data were processed

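RNA was harvested after 72 hours of knockdown from 3 siNT and 3 siPAX9 samples of MCF10A cells. The authors made poly(A)+ libraries, used Partek Flow to run Bowtie 2 against hg19 on single-end reads and to estimate transcript abundance by Cufflinks, and the deposited table holds 1 FPKM per group at each of 41656 rows. How libraries were scaled to each other is not given in the sources used here, and the study's methods give only a range of reads per library, while the table holds no counts or depths per sample, so the precision of each FPKM is unknown. The table also holds the authors' own fold changes, test statistics, p-values and q-values, which were not used.

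Rows were assigned to each symbol, the row with the highest mean FPKM was kept, and log2(siPAX9/siNT) was computed with nothing added. Genes that reached an FPKM of 1 in either group formed the background (13622 of 26822 symbols). Named genes were the 9 members, their direct partners and relatives, and in each list the 3 largest changes in each direction past 2-fold; 1 gene that this rule names is not reported here. The members and lists were chosen with earlier results of these data known. p53 sites were searched on both strands of GRCh37, which has the coordinates of hg19, around canonical starts of GENCODE release 44. Scripts (Python 3.11.15, numpy 2.4.6, pandas 2.3.3, matplotlib 3.10.9) were tested on simulated data. The alternatives added a value to each FPKM, centred the ratios, or changed the filter, the rows, the fold and the site definition.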

Additional observations from a re-analysis of the deposited data

How the results depend on the processing

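With 1 FPKM per group there was no replicate to leave out. No paired analysis was possible because the table holds no values per sample. MDM2 was the only member past 2-fold, and the directions of the 9 members did not change, under each of the 8 alternatives for the added value, the centring, the filter and the rows, and the median log2 ratio of the members lay between 0.52 and 0.61. The other p53 targets past 2-fold numbered 7 to 10, all higher, of the 39 to 42 that entered each count. At a fold of 1.5 the members past it were 5 of 9, with 4 higher and 1 lower. Other p53 targets past it were 20 of 42, with 17 higher and 3 lower. Of all genes, 4331 of 13622 were past it, or 31.8%, with 14.8% higher and 17.0% lower. All genes past 2-fold numbered 2040 of 13622 as reported and 1347 of 13622 with 1 added to each FPKM. They numbered 5988 of 20409 with no filter and 1223 of 10361 with a minimum FPKM of 5. With no filter, 3797 of the 20409 were at least 2-fold higher, beside 9 of 42 other p53 targets. With the minimum of 5, 552 of the 10361 were at least 2-fold higher, beside 8 of 40. The contrast of these targets with all genes thus depended on the filter. The number of members with a p53 site was 0 in the window from 250 bases before to 50 after the start, against 0.106% of 17983 genes. It was 0 with up to 1 mismatch, against 0.0890% of genes. At such shares, 0 of 9 says little about the members. The number was 2 with half-sites 0 or 1 base apart (1.43% of genes), 4 with the looser cores (14.3%) and 5 in the 5000-base window (8.85%). The last 3 settings were added after seeing the data. The table does not give the reads behind each FPKM, so the precision of small differences such as that of ZMAT3 is unknown.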

Other observations

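GDF15 and SESN2 are also known as targets of ATF4, the transcription factor of the integrated stress response, so a list of genes of that pathway, which includes SESN2, was examined. The FPKM of ATF4 mRNA itself was 404 in siNT against 157 in siPAX9 (log2 ratio -1.37), a gene named after its values were seen. Of 13 genes of the pathway that reached an FPKM of 1 in either group, 7 were at least 2-fold lower and 0 at least 2-fold higher, against 7.22% and 7.75% of all genes. The lowest were PHGDH, the entry enzyme of serine synthesis, with 45.5 in siNT and 1.20 in siPAX9, CHAC1, a glutathione-degrading enzyme, with 8.60 and 1.14, and ASNS, asparagine synthetase, with 44.4 and 7.98. GDF15, at 30.5 and 38.8, and SESN2, at 17.0 and 17.3, were not lower. The part of ATF4 in the values of these genes was not tested. Of the 13, 4 were higher in siPAX9, SESN2 among them, and ATF3, named after its values were seen, had the highest log2 ratio, 0.76, with 1.86 in siNT and 3.15 in siPAX9.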
